A study of Mus musculus with 374 samples.

Results

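The G2 and mitosis genes described here are 46 genes whose products carry a cell from the end of DNA replication through chromosome condensation, spindle assembly, segregation and cytokinesis. They were taken from a named list of 47 genes by matching symbols to the 19829 mouse genes of the count table, where Nusap1 was not matched and is not analysed here. Of the 46 genes, 40 had at least 50 unique molecular identifiers (UMIs, each marking 1 captured transcript molecule) over all wells. The other 6 fell below that number and are counted but not described one by one, the lowest being Tpx2, a spindle assembly factor with 4 UMIs.

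Transcripts were counted by CEL-seq2, a plate method that tags the 3′ end of each captured transcript, in 374 wells of 1 plate, each loaded with a single sorted cell of 1 C57BL/6 female mouse aged 10 to 13 weeks. Bone marrow gave 96 erythroblasts (EryB, sorted as Ter119+ and CD44+ with middle to high forward scatter), 96 granulocytes (Grans, Mac1+ Gr1+), 95 progenitor/stem cells (LSK, lineage negative, Kit+ and Sca1+) and 44 B lymphocytes (B220+ with low forward scatter). The thymus of that mouse gave 43 T cells (CD3+ with low forward scatter). No allele, transgene or treatment is given for the mouse, and as all wells came from it each population is 1 sample, so that no test between populations was possible and every interval below covers counting error only.

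Progress into mitosis is driven by cyclin A2 and the B cyclins bound to Cdk1, and is reversed when the anaphase-promoting complex, a ubiquitin ligase, marks cyclins and securin for destruction. The transcripts of most of these genes are low in G1, climb after replication has begun and peak in G2 and mitosis, so that they serve as markers of cells late in the cycle. In bone marrow, erythroblasts divide several times while they fill with haemoglobin, mature granulocytes and small lymphocytes have left the cycle, and many LSK cells are quiescent.

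The wells held between 8 and 24033 UMIs on mouse genes. The median was 6113.5 in erythroblasts, 7959 in LSK cells, 3880 in granulocytes, 3028.5 in B lymphocytes and 4347 in T cells. Each sorted population carried its own marker genes: summed markers were 18.6-fold higher in erythroblasts, 66.2-fold in granulocytes, 36.9-fold in B lymphocytes and 82.6-fold in T cells than in LSK cells, and progenitor/stem cell markers were at 0.0383 to 0.0651 of their LSK level in the other 4 populations. In 7 of the 374 wells the transcripts correlated best with another population than the sorted one (B lymphocyte wells B6 and A8, erythroblast well C5, granulocyte wells J12 and I17, LSK well K5 and T cell well P4). No cell barcode was shared between wells. With the other 367 wells, the ratios of the summed genes over LSK cells below stayed within their intervals.

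Erythroblasts carried most of the G2 and mitosis transcripts on the plate. Their 15857 member UMIs were 76.5% of the 20740 counted in all wells and 2.38% of the mouse UMIs of that population (95% exact Poisson interval 2.34 to 2.42%). The summed share was 0.290% in LSK cells (0.278 to 0.302%), 0.296% in granulocytes (0.279 to 0.313%), 0.372% in B lymphocytes (0.340 to 0.406%) and 0.382% in T cells (0.356 to 0.410%). Erythroblasts thus stood 8.21-fold above LSK cells (7.86 to 8.57), a log2 ratio of 3.04 that became 3.90 with TMM factors and 4.73 with scran factors in place of the mouse UMI totals. The intervals of LSK cells and granulocytes overlapped.

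Well by well, the share among erythroblasts had a lowest value of 0.874%, a median of 2.36% and a highest value of 5.03%. The lowest, median and highest shares were 0.0397%, 0.161% and 1.42% in LSK cells, 0%, 0.130% and 2.31% in granulocytes, 0%, 0.197% and 1.96% in B lymphocytes, and 0.0863%, 0.275% and 1.96% in T cells. All 4 other populations therefore overlapped the erythroblasts through a few wells: 5 LSK wells, 4 granulocyte wells, 3 B lymphocyte wells and 2 T cell wells lay at or above the lowest erythroblast well. The median count behind these shares was 153.5 member UMIs in an erythroblast well against 12 in LSK, 5 in granulocyte, 5.5 in B lymphocyte and 11 in T cell wells.

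**Figure D1:**
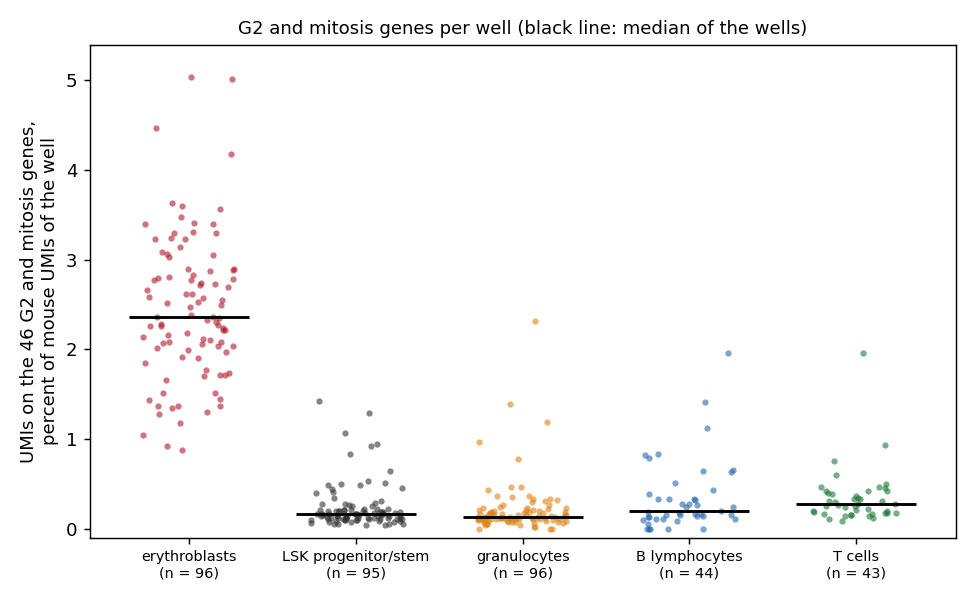
Share of each well's mouse UMIs (vertical axis, percent) that fell on the 46 G2 and mitosis genes, by sorted population (1 point per well, black line at the median of the wells). Erythroblast wells lie between 0.874% and 5.03%, and most other wells lie below 0.5% with a few wells of each population reaching past 0.874%.

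By single gene, 45 of the 46 members had their highest level in erythroblasts, in CPM, the UMIs of a gene scaled to the mouse UMIs of the population. A UMI marks a molecule whatever its length, so levels were compared between genes without division by length. The median member stood at 292 CPM in erythroblasts, 37.1 in LSK cells, 37.2 in granulocytes, 40.5 in B lymphocytes and 32.4 in T cells. The exception was Pttg1, which codes for securin, the inhibitor of separase: it had 42.0 CPM in erythroblasts (27.9 to 60.7), 32.3 in LSK cells (21.3 to 47.1), 47.1 in granulocytes (28.3 to 73.5), 29.5 in B lymphocytes (8.03 to 75.4) and 15.0 in T cells (3.09 to 43.7), intervals that all overlap.

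**Figure D2:**
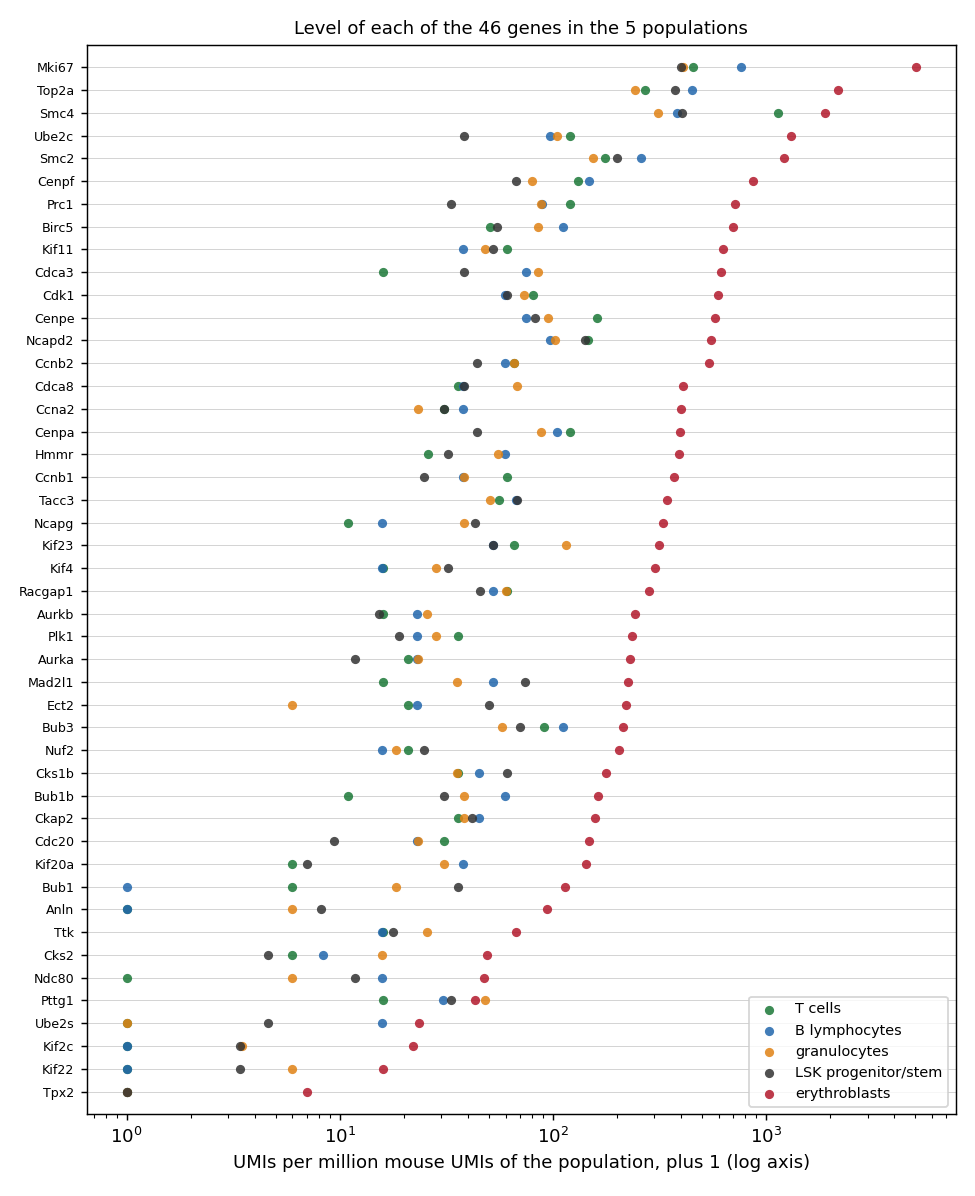
Level of each of the 46 genes (rows, ordered by the erythroblast level) in CPM plus 1 on a log axis, 1 coloured point per population. The erythroblast point lies farthest right in every row but that of Pttg1, and points at 1 are genes without a UMI, some of them hidden behind one another.

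The comparison of erythroblasts with LSK cells sets a dividing, maturing population against the most immature cells on the plate. A gene was compared where both sums together held at least 20 UMIs, and called higher or lower at 2-fold. Of the 42 members compared, 41 were called higher and 0 lower, where 12.1% of all 8076 genes compared were higher and 49.4% lower. The median member had a log2 ratio of 3.24 against -0.98 for all genes, which puts it 4.22 above the median gene. The lowest ratio was 0.38 (Pttg1) and the highest 5.13 (Ube2c). Without the 10 most abundant genes in the denominator, per ERCC spike-in UMI, or with TMM or scran factors, the median gene lay between -1.09 and -0.05, and the members called higher numbered 41 or 42.

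Mki67 and Top2a were the most abundant members. Mki67 codes for Ki-67, which coats mitotic chromosomes and is the usual marker of proliferation. It had 3374 UMIs in erythroblasts with a UMI in all 96 wells (lowest 4, median 30, highest 119 per well) and 332 UMIs in 67 of 95 LSK wells (lowest 0, median 1, highest 53), a 12.7-fold difference (11.4 to 14.3). Top2a, the topoisomerase that untangles sister chromatids, differed by 5.82-fold (5.15 to 6.60) on 1451 against 312 UMIs. All 96 erythroblast wells thus lay above the median LSK well for Mki67, while single LSK wells reached into the erythroblast range.

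Among cyclins, Cdk1 and its Cks partners all 6 genes were called higher, with a median log2 ratio of 3.69. Ccnb1 and Ccnb2, the B cyclins that activate Cdk1, were 15.4-fold (9.76 to 25.7) and 12.5-fold (8.88 to 18.2) higher in erythroblasts. Ccna2, which acts with Cdk2 in S phase and with Cdk1 in G2, was 13.4-fold higher (8.86 to 21.0). Cdk1, the kinase itself, rose from 59.9 to 595 CPM, or 9.94-fold (7.39 to 13.6). Cks1b, whose product binds Cdk complexes in S phase as well, was at the low end with 2.95-fold (2.11 to 4.2).

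The mitotic kinases and entry factors had the highest median ratio but one of the roles, 4.05. Aurka, the centrosomal Aurora kinase, was 21.3-fold higher (10.9 to 47.4) on 153 against 9 UMIs. Plk1, the polo kinase of mitotic entry, was 13.0-fold higher (7.66 to 23.8), and Cdca3, a trigger of mitotic entry, 16.6-fold (11.5 to 24.7). The 3 genes of the chromosomal passenger complex, which corrects faulty spindle attachments, lay close together. Aurkb, its kinase, was 16.8-fold higher (9.36 to 33.2), Birc5 (survivin) 12.9-fold (9.49 to 17.9) and Cdca8 (borealin) 10.9-fold (7.53 to 16.4).

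The genes of the anaphase-promoting complex and its substrates spanned the full range of the members. Ube2c, the ubiquitin-conjugating enzyme of that complex, lies at chr2:164769898-164778822 on the plus strand (GRCm38) and was 35.1-fold higher in erythroblasts (24.5 to 52.0), the highest ratio of the 42. It had 869 UMIs in 95 of 96 erythroblast wells with a median of 8 and a highest count of 26, against 31 UMIs in 23 of 95 LSK wells with at most 3 in a well. Cdc20, the activator that brings substrates to the complex, was 17.5-fold higher (8.19 to 44.7) on 98 against 7 UMIs. Pttg1, on chr11:43420250-43426251 (minus strand), codes for a substrate of the same complex and was the only one of the 42 members compared that was not called, at 1.30-fold (0.738 to 2.29) on 28 UMIs in 26 wells against 27 UMIs in 24 wells.

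Centromere and kinetochore genes, the platform on which microtubules attach, had a median log2 ratio of 3.09. Cenpf, a large protein of the outer kinetochore, was 13.2-fold higher (10.0 to 17.7), and Cenpa, the histone H3 variant of centromeres, 9.18-fold (6.47 to 13.4). Cenpe, a kinetochore motor, was 7.07-fold higher (5.45 to 9.29) and Nuf2, a subunit of the Ndc80 complex, 8.51-fold (5.30 to 14.4). The kinesins compared, which are microtubule motors, had a median of 3.44. They ran from 6.11-fold for Kif23 (4.39 to 8.70), a component of centralspindlin, and 9.68-fold for Kif4 (6.42 to 15.2), a chromosome-bound motor, through 12.2-fold for Kif11 (8.92 to 17.2), which pushes spindle poles apart, to 23.8-fold for Kif20a (9.84 to 74.9), a motor of cytokinesis.

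Of the spindle proteins, Prc1, which bundles microtubules of the midzone, was 22.2-fold higher (15.1 to 34.1) on 479 against 27 UMIs. Hmmr, a microtubule-binding spindle protein, was 12.6-fold higher (8.39 to 19.6), Tacc3, a stabiliser of spindle fibres, 5.12-fold (3.81 to 6.99) and Ckap2, another microtubule-associated protein, 3.87-fold (2.60 to 5.87). In cytokinesis, Anln, the actin-binding protein of the contractile ring, was 12.9-fold higher (5.62 to 36.6). Racgap1 and Ect2, the regulators of the small GTPase RhoA at the cleavage site, were 6.36-fold (4.45 to 9.31) and 4.49-fold (3.16 to 6.51) higher.

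Condensin and spindle checkpoint genes had the lowest medians of the 11 roles. The condensin subunits, which compact chromosomes, had a median log2 ratio of 2.41 and ran from 3.92-fold for Ncapd2 (3.17 to 4.87) through 4.66-fold for Smc4 (4.13 to 5.27) and 6.06-fold for Smc2 (5.12 to 7.20) to 7.80-fold for Ncapg (5.44 to 11.5). The 5 spindle checkpoint genes, which hold anaphase until all chromosomes are attached, had the lowest median, 1.70. Bub3 was 3.04-fold higher (2.23 to 4.21), Mad2l1 3.06-fold (2.26 to 4.19), Bub1 3.24-fold (2.08 to 5.16), Ttk 3.94-fold (2.12 to 7.78) and Bub1b 5.41-fold (3.48 to 8.73). The upper ends for Bub3, Mad2l1 and Bub1 lie below the lower end of Ube2c, and the order of the checkpoint genes among themselves was not resolved.

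**Figure D3:**
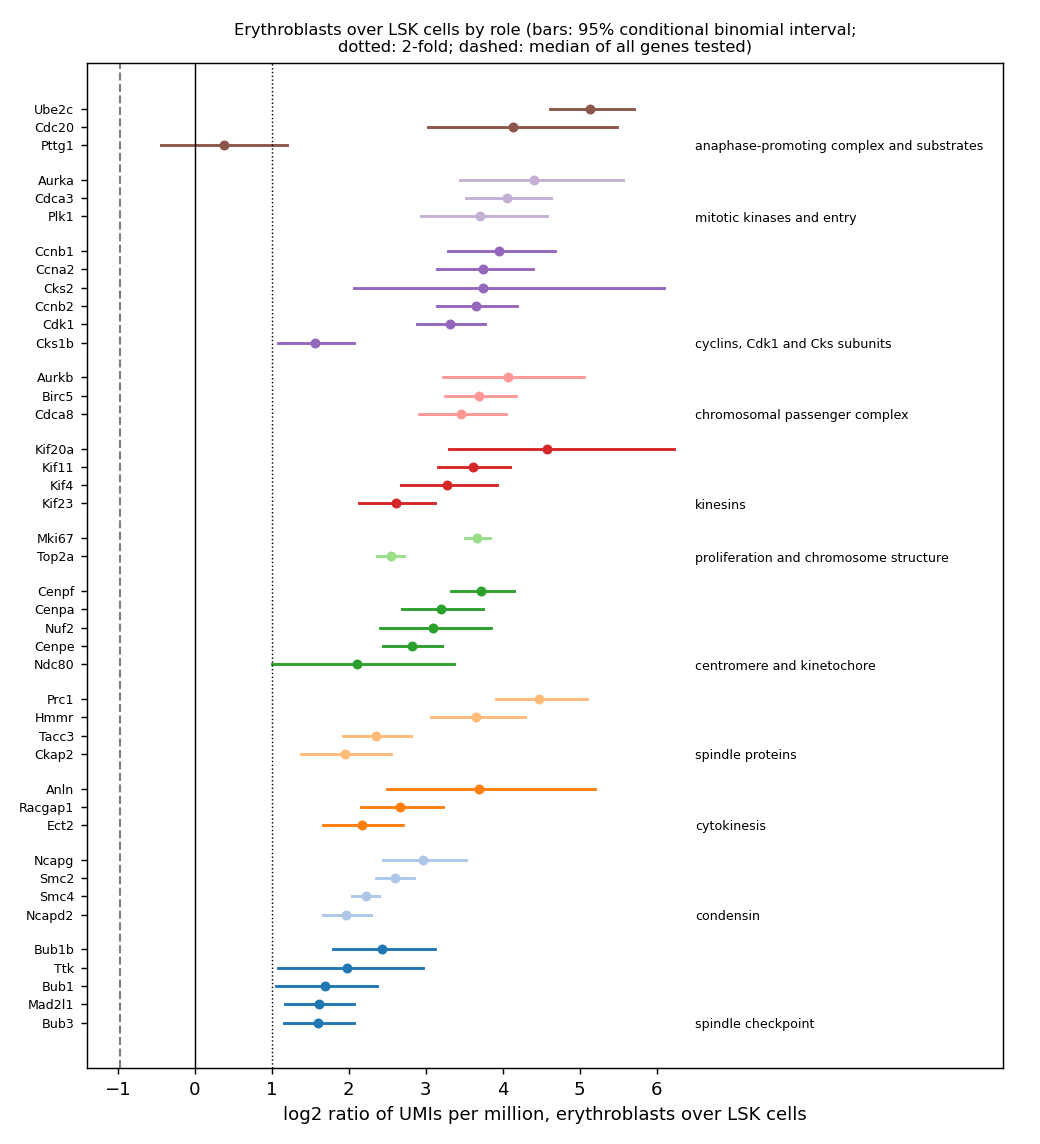
Log2 ratio of CPM between erythroblasts and LSK cells for the 42 members compared, grouped by role and ordered by the median of the role (points, with 95% conditional binomial intervals as bars). All points but Pttg1 lie right of the dotted line at 2-fold, from 1.56 for Cks1b to 5.13 for Ube2c, and the dashed line marks the median of all genes compared, -0.98.

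Promoter sequences are shown for these genes because 41 of the 42 members compared were called higher in erythroblasts than in LSK cells. Whether they are regulated together was not tested. Many genes of this phase carry the cell cycle genes homology region (CHR, letters TTTGAA), bound by the MuvB complexes, near CCAAT boxes (letters CCAAT), bound by NF-Y. RefSeq promoters on GRCm38.p6, from 250 bases before to 50 after a transcript start, were found for 41 of the 46 members (44 windows, as some genes have several starts). Both strands were searched, and matches of the 2 motifs could share bases, as they did by 1 base in Cdca8. TTTGAA was in 34 of the 44 windows (77.3%) and in 17.9% of all 32851 windows. CCAAT was in 35 (79.5%) against 37.4%, and both together in 31 (70.5%) against 6.95%. Within 50 bases of the start on either side, TTTGAA was in 65.9% of the member windows and 4.94% of all windows.

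The windows below run from 120 bases before to 25 bases after the start, 5′ to 3′ on the strand of the gene, with the letters of the CHR and of the CCAAT box, or their reverse complements, in capitals. Ube2c (chr2:164769809-164769953, plus strand), Prc1 (chr7:80294356-80294500, plus strand), Cdc20 (chr4:118437319-118437463, minus strand), Ccnb2 (chr9:70421530-70421674, minus strand) and Cdk1 (chr10:69352888-69353032, minus strand) are shown as members that hold both motifs, at 9.94-fold to 35.1-fold. Members with low ratios held both motifs too, among them Bub3, Ckap2, Ncapd2 and Cks1b, the last at a log2 ratio of 1.56, the lowest with TTTGAA. Birc5 (chr11:117849117-117849261, plus strand) and Pttg1 (chr11:43425957-43426101, minus strand) are shown as members without these letters in the stretch, at the 12.9-fold and 1.30-fold ratios given above. The Pttg1 window follows a RefSeq start that lies inside the gene span given above (chr11:43420250-43426251). Sequence before the 5′ end of that span was not searched.
Ube2c: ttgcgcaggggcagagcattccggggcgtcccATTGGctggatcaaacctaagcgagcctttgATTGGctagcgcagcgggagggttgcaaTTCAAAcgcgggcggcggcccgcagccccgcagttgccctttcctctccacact
Prc1: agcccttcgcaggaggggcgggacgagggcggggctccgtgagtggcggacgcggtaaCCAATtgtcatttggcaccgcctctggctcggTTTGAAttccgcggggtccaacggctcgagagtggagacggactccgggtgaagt
Cdc20: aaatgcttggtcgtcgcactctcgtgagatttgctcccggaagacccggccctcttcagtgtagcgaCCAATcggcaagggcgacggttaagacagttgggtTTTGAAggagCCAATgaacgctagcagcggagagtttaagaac
Ccnb2: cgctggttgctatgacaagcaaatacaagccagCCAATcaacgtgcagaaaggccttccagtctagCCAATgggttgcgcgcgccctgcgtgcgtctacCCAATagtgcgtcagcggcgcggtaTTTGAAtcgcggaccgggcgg
Cdk1: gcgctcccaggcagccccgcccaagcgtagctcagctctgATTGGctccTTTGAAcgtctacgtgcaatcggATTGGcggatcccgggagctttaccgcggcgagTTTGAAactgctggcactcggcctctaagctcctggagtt
Birc5: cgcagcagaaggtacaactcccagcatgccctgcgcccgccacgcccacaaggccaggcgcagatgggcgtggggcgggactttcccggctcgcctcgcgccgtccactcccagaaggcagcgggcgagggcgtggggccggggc
Pttg1: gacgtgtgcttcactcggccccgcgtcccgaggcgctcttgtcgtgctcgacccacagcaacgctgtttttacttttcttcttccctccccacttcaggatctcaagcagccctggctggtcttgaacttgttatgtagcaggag

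In these stretches the CHR letters began 29 bases before the start in Ube2c, on the opposite strand, 30 bases before it in Prc1, 18 in Cdc20 and 15 and 71 in Cdk1, and 4 bases after it in Ccnb2. Members with TTTGAA in any of their windows had a median log2 ratio of erythroblasts over LSK cells of 3.27 (29 genes compared), and those without it 2.82 (9 genes compared), with ranges that overlap (1.56 to 5.13 and 0.38 to 3.94). Ccnb1, at 15.4-fold, had the highest ratio of those without it. A match of letters is a description of the sequence, and binding was not measured.

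Lists of other cell cycle genes were compared in the same way, beside the same 12.1% of all genes higher and 49.4% lower in erythroblasts. Of a further list of 43 G2 and mitosis genes, 38 were compared and 38 were higher in erythroblasts, with a median log2 ratio of 2.98. Of those below the minimum, Pimreg and Cep55 had 0 UMIs in erythroblasts against 10 and 6 in LSK cells. The others, Cit, Cdc25c and Melk, had 13, 6 and 4 UMIs against 0, 0 and 2. Examples of the genes compared are Knl1, the kinetochore scaffold, at 3.15, Ncapg2, a condensin subunit, at 2.65, and Ckap5, a microtubule polymerase, at 1.71. Of 26 DNA replication and S phase genes, 13 were higher and 2 lower, with a median of 1.01: Pcna, the sliding clamp, was at 1.79, Rrm1, a subunit of ribonucleotide reductase, at 2.36, and Mcm6, of the replicative helicase, at 0.10, while Hells, a chromatin remodeller, and Ung, a uracil glycosylase, were lower at -1.31 and -1.41. Of 8 G1 cyclins and kinases, 3 were higher and 4 lower, the latter close to the share of all genes. Ccnd3 (cyclin D3) was at 2.76, whereas Cdk6, the kinase partner of D cyclins, and Ccnd2 (cyclin D2) were at -4.01 and -5.33. Of 9 inhibitors of the cycle 8 were compared, with 4 higher and 2 lower: Btg2, an antiproliferative factor, was at 3.20, Cdkn2d (p19, a Cdk4 and Cdk6 inhibitor) at 2.66 and Cdkn1b (p27) at -0.07.

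The other 3 populations differed little from LSK cells in the summed members. The log2 ratio was 0.03 for granulocytes (1.02-fold, 0.951 to 1.09), 0.36 for B lymphocytes (1.28-fold, 1.16 to 1.41) and 0.40 for T cells (1.32-fold, 1.21 to 1.43). Per ERCC UMI in place of mouse UMI the same ratios were -0.93, -0.96 and -0.49, so the direction depended on the scale. On that scale 0 members were called higher in granulocytes, B lymphocytes and T cells, beside 5.81%, 1.82% and 3.27% of all genes. Called lower were 16 of 36 members in granulocytes, 20 of 33 in B lymphocytes and 16 of 34 in T cells. Of all genes, 73.4%, 79.2% and 57.1% were lower in the same order. Without the well with the most member UMIs in each population the ratio of granulocytes per mouse UMI was -0.15.

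In granulocytes 36 members were compared with LSK cells, of which 5 were called higher and 3 lower, beside 11.7% and 48.2% of all 7826 genes. The median member was at 0.24 and the median gene at -0.95. Relative to that median gene, 19 members were higher and 1 lower, beside 24.4% and 21.2% of all genes. The genes called higher were Ube2c (2.80-fold, 1.72 to 4.61), Prc1 (2.68-fold, 1.58 to 4.61), Cdca3 (2.27-fold, 1.35 to 3.82), Kif23 (2.21-fold, 1.43 to 3.44) and Cenpa (2.01-fold, 1.23 to 3.30). Mad2l1 was called lower (0.475, 0.245 to 0.859), with Bub1 on 7 granulocyte UMIs and Ect2 on 2, raised to 3 for the ratio. Well I13 held 268 of the 1193 granulocyte member UMIs, and without it and the LSK well N14 the genes called higher numbered 3.

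In B lymphocytes 33 members were compared, with 5 higher and 1 lower beside 7.51% and 19.3% of all 7297 genes, and medians of 0.12 for the members and -0.32 for all genes. Relative to that median gene, 9 members were higher and 0 lower, beside 12.0% and 10.7% of all genes. Prc1 (2.73-fold, 1.26 to 5.58), Ube2c (2.58-fold, 1.24 to 5.07), Cenpa (2.39-fold, 1.19 to 4.54), Cenpf (2.23-fold, 1.27 to 3.79) and Birc5 (2.05-fold, 1.06 to 3.75) were the genes called higher, on 12 to 20 UMIs each. The lower gene, Ect2, rested on 3 UMIs. Well A11 held 94 of the 505 B lymphocyte member UMIs, including 5 of the 14 for Cenpa and 5 of the 20 for Cenpf. Without it and the LSK well N14, Cenpa was at 1.56-fold (0.663 to 3.31) and Cenpf at 1.84-fold (0.961 to 3.32), both below 2-fold. Prc1, Ube2c and Birc5 stayed above 2-fold, and Cdca3 reached 2.09-fold (0.863 to 4.57). Haemoglobin transcripts were 2.33-fold higher in B lymphocytes than in LSK cells, beside 1.46-fold in T cells and 1.27-fold in granulocytes. The member sum is set against haemoglobin further on.

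In T cells 34 members were compared, with 5 higher and 8 lower beside 9.17% and 19.4% of all 7565 genes, and medians of -0.04 and -0.26. Relative to the median gene 8 were higher and 4 lower, beside 14.1% and 12.7% of all genes. Of the 8 lower genes on the CPM scale, 7 rested on 3 UMIs or fewer. The genes called higher were Prc1 (3.70-fold, 2.05 to 6.67), Ube2c (3.23-fold, 1.81 to 5.68), Smc4 (2.81-fold, 2.37 to 3.33), Cenpa (2.78-fold, 1.59 to 4.79) and Ccnb1 (2.50-fold, 1.11 to 5.37). Well O4 held 213 of the 766 T cell member UMIs, including 11 of the 24 for Ube2c, 10 of the 24 for Cenpa and 6 of the 12 for Ccnb1. Without it and the LSK well N14, 2 genes were called higher: Smc4 at 2.76-fold (2.30 to 3.30) and Prc1 at 3.46-fold (1.82 to 6.49).

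Smc4 stood apart from the other members in T cells. It had 228 UMIs, or 1138 CPM, spread over 38 of 43 wells with a median of 4 and a highest count of 22, out of 766 member UMIs in that population. Smc2, its partner in condensin, had 35 UMIs in 19 of those wells, or 175 CPM. In erythroblasts the levels of Smc4 and Smc2 were 1887 and 1212 CPM, and in LSK cells 405 and 200 CPM.

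Member UMIs in single wells of the non-erythroid populations are set here against the erythroid transcripts found in those wells. Granulocytes and lymphocytes do not make haemoglobin, yet 4 haemoglobin genes made up 1.21% of mouse UMIs in LSK, 1.54% in granulocyte, 2.83% in B lymphocyte and 1.77% in T cell wells, against 23.5% in erythroblasts. Erythroblasts had 0.101 member UMIs per haemoglobin UMI. At that ratio, the haemoglobin in the other wells would go with member shares of 0.123% in LSK cells, 0.156% in granulocytes, 0.286% in B lymphocytes and 0.179% in T cells, called the haemoglobin-scaled level here. The measured shares were 2.36-fold (2.26 to 2.47), 1.90-fold (1.79 to 2.01), 1.30-fold (1.19 to 1.42) and 2.14-fold (1.99 to 2.30) above it. With Alas2 and Slc4a1, an enzyme of haem synthesis and a red cell anion exchanger, as the scale they were 3.13-fold, 2.45-fold, 1.70-fold and 2.30-fold above. The ratio of members to haemoglobin was not constant among erythroblasts. Wells above the median CD44 signal had 2.16% member and 17.6% haemoglobin UMIs, and those at or below it 2.71% and 32.7%. The source of the erythroid transcripts, and whether members came with them at any fixed ratio, was not tested.

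The median well lay close to that level in granulocytes and B lymphocytes. Median measured and scaled shares were 0.130% and 0.165% in granulocytes, 0.197% and 0.182% in B lymphocytes, 0.161% and 0.1% in LSK cells, and 0.275% and 0.169% in T cells. The granulocyte median lay below its haemoglobin-scaled value. At an equal depth of 1000 mouse UMIs per well, a member UMI was seen in 100% of erythroblast wells, 80.6% of LSK, 78.6% of granulocyte, 78.8% of B lymphocyte and 91.5% of T cell wells, with means of 24.7, 2.49, 2.21, 3.35 and 3.27 member UMIs. Without thinning those shares were 100%, 100%, 98.9%, 88.4% and 100% of the same wells. Thinning left out 1 erythroblast, 2 granulocyte, 1 B lymphocyte and 1 T cell well below that depth.

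Some wells of each population passed a limit set against the scaled level. With at least 20 member UMIs and 2-fold over the scaled count, these were 19 of 95 LSK wells (20.0%, exact binomial interval 12.5 to 29.5%), 7 of 96 granulocyte wells (7.29%, 2.98 to 14.4%), 3 of 44 B lymphocyte wells (6.82%, 1.43 to 18.7%) and 6 of 43 T cell wells (14.0%, 5.30 to 27.9%). The lymphocyte gates took cells of low forward scatter, and whether this sets part of these shares was not tested. Some wells passed at an ordinary member share: the lowest was 0.188% in LSK cells and 0.279% in T cells, near the well medians of 0.161% and 0.275%. The limit of 20 UMIs is harder to reach in a shallow well, and the median depth of the LSK wells was the highest of the 5 populations.

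Among LSK cells, well N14 had 215 member UMIs on 36 of the 46 genes, 1.42% of its 15141 mouse UMIs against a scaled 0.0808%. Wells L6 (163 member UMIs, 1.29%), M18 (184, 1.06%) and N3 (138, 0.920%) followed, with 91, 94 and 101 UMIs on the 26 S phase genes. Among granulocytes, well J14 had 171 member UMIs on 36 genes, or 2.31%, and I13 268 on 39 genes, or 1.2%. Well J12, 1 of these 7 granulocyte wells, was the one whose transcripts correlated best with LSK cells.

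In B lymphocytes the wells were A11 with 94 member UMIs on 27 genes (1.96%), A4 with 54 and B21 with 51. In T cells well O4 had 213 member UMIs on 30 genes (1.96%) with 1 S phase UMI, the other 5 wells having 21 to 29 member UMIs, and well P15 reached its 25 UMIs on 4 genes. The B lymphocyte well B22, by contrast, had 1.13% member UMIs at 13.5% haemoglobin and lay at 0.825 of its scaled count. The 5 wells with the most member UMIs held 54.6% of all member UMIs in granulocytes, 52.1% in B lymphocytes, 45.8% in T cells, 33.2% in LSK cells and 12.4% in erythroblasts.

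**Figure D4:**
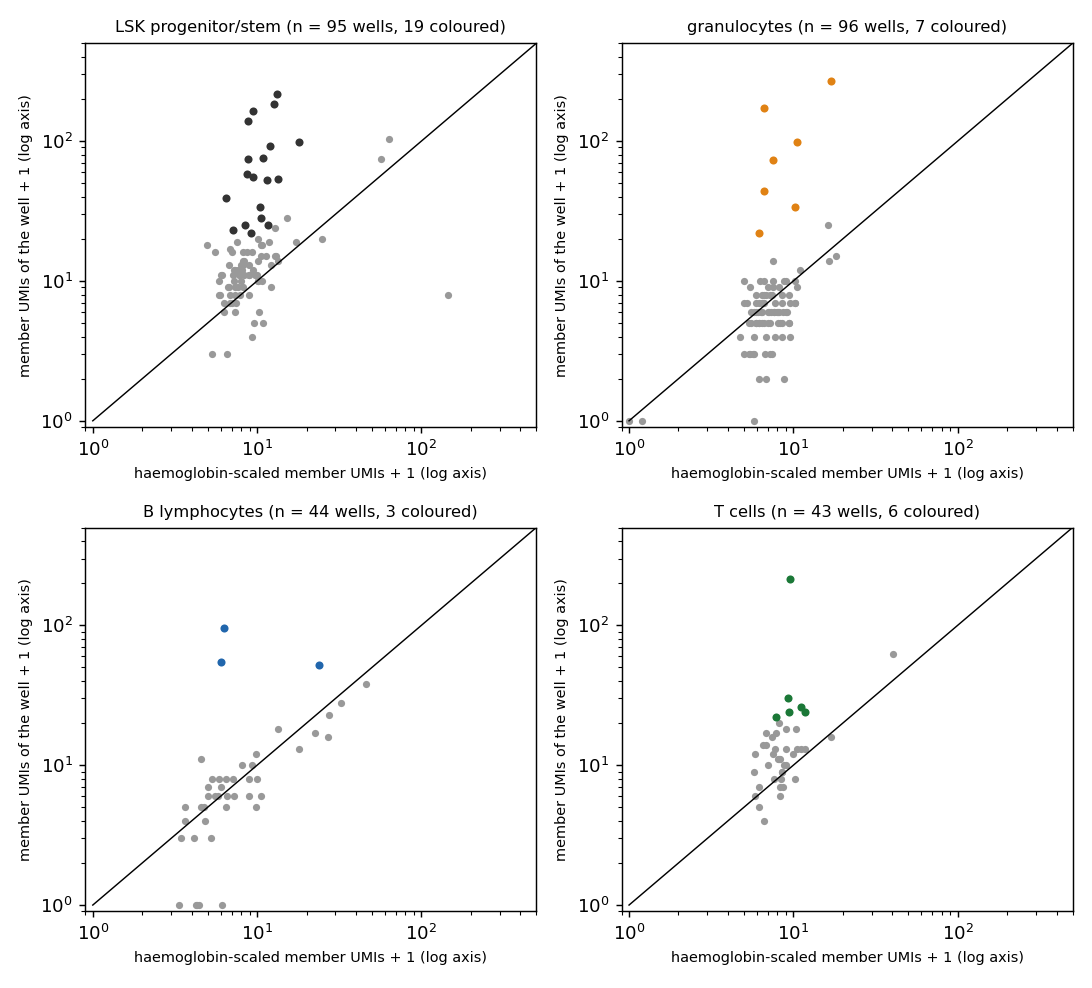
Member UMIs of each well (vertical) against the number its haemoglobin UMIs would carry at the erythroblast ratio (horizontal), both plus 1 on log axes, for the 4 non-erythroid populations. The line marks equal counts, most grey wells lie near it, and the coloured wells (19 LSK, 7 granulocyte, 3 B lymphocyte and 6 T cell) have at least 20 member UMIs and 2-fold the scaled count.

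Gene by gene, 42 members were set against the haemoglobin-scaled level. In LSK cells 22 were at least 2-fold above it and 0 below, beside 96.8% of all genes above and 0.186% below. In granulocytes the counts were 21 and 0 beside 90.7% and 0.358%, in B lymphocytes 7 and 1 beside 81.6% and 0.373%, and in T cells 15 and 1 beside 88.0% and 0.450%. The genes at large include those that erythroblasts hardly express. In LSK cells this measure restates the erythroblast over LSK ratios given above, set against the haemoglobin ratio of 19.4-fold, so its order is theirs reversed. The genes farthest above the level in LSK cells were thus Pttg1 at 14.9-fold (8.47 to 26.3), Cks1b at 6.56-fold, Bub3 at 6.37-fold and Mad2l1 at 6.34-fold. In T cells Smc4 was 8.02-fold above the haemoglobin-scaled level and Bub3 5.65-fold.

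Within the erythroblasts, the share of UMIs on G2 and mitosis genes tended to be lower where the share on S phase genes was higher, with exceptions. Wells F14 and F15 had the highest member shares, 5.03% and 5.01%, with 2 and 1 S phase UMIs. The next, F4 at 4.47%, had 33 S phase UMIs, or 0.617% against an erythroblast median of 0.659%. In counts, well E15 had both 462 member UMIs, the most of any well, and 193 S phase UMIs. Well D6 had a member share of 0.929% with 127 S phase UMIs, 1.10% of its total. The well with the lowest member share, F12 at 0.874% (30 UMIs), had 1 S phase UMI and 52.3% haemoglobin, so low member shares were found both with and without S phase transcripts.

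Across 95 erythroblast wells thinned to 1000 UMIs, the member count and the S phase count had a Spearman correlation of -0.40, and the members and the further G2 and mitosis genes one of 0.45. Without thinning the shares gave -0.54 and 0.76. By role, the correlation with S phase was -0.46 for the anaphase-promoting complex and -0.37 for centromere and kinetochore genes, but -0.06 for condensin and -0.01 for the spindle checkpoint. These roles made up 0.151%, 0.209%, 0.397% and 0.0775% of erythroblast UMIs in the same order. Few checkpoint UMIs thus remained in a thinned well, and counting noise alone can bring such a value near 0. By gene the correlation with S phase was -0.47 for Ube2c and -0.33 for Cenpf against -0.02 for Top2a and 0.06 for Smc2. In 95 LSK wells the members and S phase genes had a positive correlation of 0.26, and in 94 granulocyte wells 0.12. The wells share 1 library, and shares of 1 total are tied to one another, so these values describe the wells of this plate and no more.

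**Figure D5:**
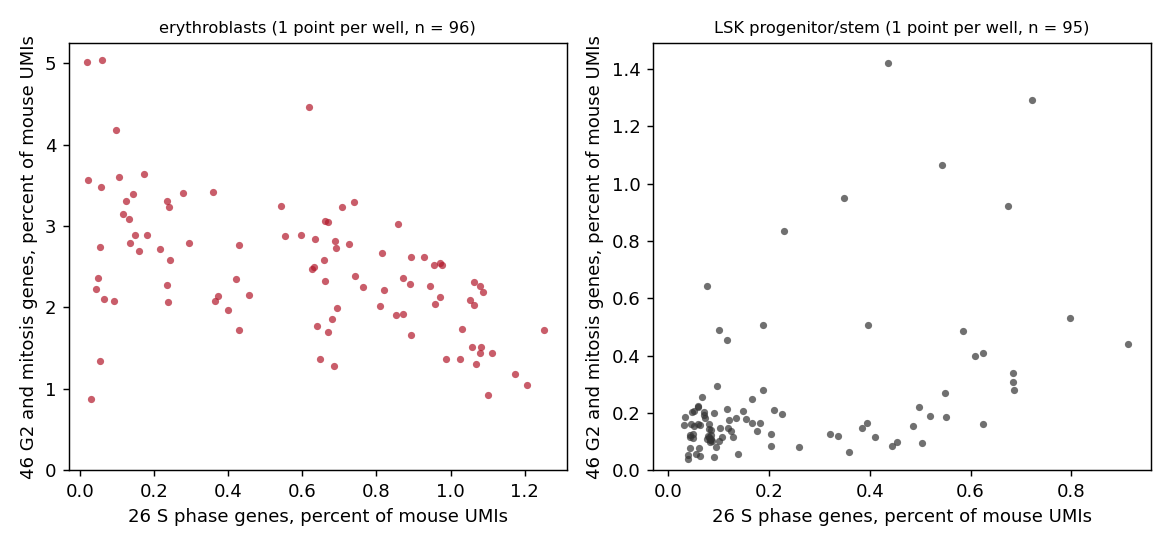
Share of mouse UMIs on the 46 G2 and mitosis genes (vertical, percent) against the share on 26 S phase genes (horizontal, percent), 1 point per well, for erythroblasts (left) and LSK cells (right). In erythroblasts the highest member shares, 5.03% and 5.01%, lie at S phase shares of 0.058% and 0.018%, the next, 4.47%, lies at 0.617%, and in LSK cells the wells near 1% lie at raised S phase shares.

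The antibody signal recorded at sorting let the erythroblasts be ordered by CD44, an adhesion molecule that falls as these cells mature. The 48 wells above the median CD44 had 2.16% member UMIs and the 48 at or below it 2.71%, a ratio of 0.798 (0.773 to 0.823). Counted per well, members were more numerous in the CD44-high wells, with a mean of 182 against 148 UMIs, since those wells held 8434 against 5456 mouse UMIs on average. Haemoglobin made up 17.6% of UMIs above and 32.7% at or below the median, and S phase genes were 1.59-fold higher (1.49 to 1.70) above it.

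The members did not follow CD44 alike. Ube2c was 0.578 (0.505 to 0.662) and Mki67 0.714 (0.667 to 0.764) as high in CD44-high as in CD44-low wells, both lower. For Top2a the ratio was 0.936 (0.842 to 1.04), for Birc5 1.17 (0.966 to 1.43) and for Cdc20 1.47 (0.941 to 2.33), with intervals that include 1. The summed spindle checkpoint genes had 1.03 (0.863 to 1.24) and the anaphase-promoting complex genes 0.644 (0.569 to 0.730). Across the median of forward scatter, which rises with cell size, the erythroblast member ratio was 0.896 (0.868 to 0.924), with S phase genes at 1.30 (1.22 to 1.38). The medians of the erythroblast wells hardly differed, at 2.36% members above and 2.37% at or below it.

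In LSK cells the split by index signal moved S phase genes more than the members for forward scatter and c-Kit, with intervals that do not overlap. Above against at or below the median, the member ratio was 1.11 (1.02 to 1.2) for forward scatter, 1.28 (1.18 to 1.39) for c-Kit, the receptor of stem cell factor, and 0.822 (0.757 to 0.891) for Sca-1, a surface antigen of immature cells. The S phase ratios were 1.97 (1.81 to 2.15), 1.81 (1.66 to 1.96) and 0.703 (0.647 to 0.763). Among granulocytes, members were at 0.393 (0.341 to 0.452) in the wells above the median of Gr1, an antigen that rises with maturation, but the medians of the wells were 0.132% and 0.129%, so the difference lay in a few wells of low Gr1.

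Forward scatter gave member ratios of 1.74 (1.54 to 1.97) in granulocytes, 1.35 (1.12 to 1.62) in B lymphocytes and 0.599 (0.517 to 0.694) in T cells. Without the well with the most member UMIs (I13, A11 and O4), these were 1.30, 1.00 and 0.981, so the values of both lymphocyte populations rested on 1 well each. The medians of the wells were lower above the forward scatter median in all 3 of these populations. They were 0.123% above and 0.155% at or below it in granulocytes, 0.165% and 0.224% in B lymphocytes, and 0.258% and 0.295% in T cells. The granulocyte ratio therefore did not describe the typical well.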

How the data were processed

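The authors' deposited table holds raw UMI counts per gene and well, made with scPipe from CEL-seq2 reads. By default scPipe aligns with Rsubread; the aligner run on these reads and the genome build were not given in the sources used here. Columns for 374 wells matched sample labels, and 9 other columns were not used. Of 19829 mouse genes 19755 had a symbol (GENCODE M21, GRCm38); ERCC spike-ins took 6.76% of UMIs and stayed out of totals. Counts were summed per population. With 1 mouse no test across samples was possible, so a gene was called at 2-fold where the 2 sums together held at least 20 UMIs, with sums below 3 UMIs raised to 3. Intervals are 95% exact Poisson, binomial or conditional binomial. Wells were thinned to 1000 UMIs (mean of 50 draws). The ratio script was checked on simulated counts.

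The members and the other lists were chosen with earlier results of these data known. Members with at least 50 UMIs could be named, and of each other list the 3 with the most UMIs and those of opposite direction. Hells, Ung, Pimreg and Cep55 are of that second kind, and Cit, Cdc25c and Melk are named as the other genes below the minimum. Exons of 14 members overlap another gene in GENCODE M21, 2 of them (Top2a, Ncapd2) on the same strand, and no source used here states whether counting used strand. Alternatives were other denominators, ERCC scaling, TMM (edgeR 4.0.16), scran 1.30.0 factors, other minimum counts, thinning to 2000 UMIs or none, and fewer wells or members. Python 3.11.15 and R 4.3.3 were used.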

Additional observations from a re-analysis of the deposited data

How the results depend on the processing

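No paired analysis was possible because the numbers shared by the populations only count the wells of 1 mouse, and no result comes from a test. Against the main values, the log2 ratio of the summed members over LSK cells moved in erythroblasts to 3.39 without the 10 most abundant genes in the denominator, 2.92 per ERCC UMI, 3.90 with TMM factors, 4.73 with scran factors, 3.32 as a mean of well shares, 3.15 without the well with the most member UMIs (E15, and N14 of LSK), 3.23 without Bub3, Ube2s, Cks1b, Smc2 and Smc4, and 2.90 without Mki67. In granulocytes the first 7 of these settings, with wells I13 and N14 left out, gave 0.28, -0.93, 0.80, 0.68, -0.18, -0.15 and 0.15. In B lymphocytes the same denominator, ERCC, scran and mean of well shares gave 0.59, -0.96, 0.77 and 0.50. In T cells ERCC and scran gave -0.49 and 0.66, leaving out wells O4 and N14 0.12, and leaving out those 5 genes 0.14. Per ERCC UMI 3 genes that were called higher in B lymphocytes turned below 0 on the log2 scale, Birc5 to -0.29, Cenpa to -0.067 and Cenpf to -0.16. The cause of these shifts was not tested.

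Counts of members called higher over LSK cells went from 5 to 14 with scran, 19 relative to the median gene, 9 without a minimum and 3 without wells I13 and N14 in granulocytes, and to 18 with TMM factors and 8 without the 10 most abundant genes. In B lymphocytes they went from 5 to 13 with scran, 9 relative to the median gene, 3 at a minimum of 50 UMIs, 10 without a minimum, and 9 with TMM factors or without the 10 most abundant genes, and in T cells from 5 to 8 relative to the median gene, without a minimum or without the 10 most abundant genes, and 2 without wells O4 and N14. Counts called lower fell from 3 to 1 in granulocytes with scran, relative to the median gene, at 50 UMIs, with TMM factors or without the 10 most abundant genes, from 1 to 0 in B lymphocytes with scran, relative to the median gene, at 50 UMIs, without the 10 most abundant genes or without wells A11 and N14, and from 8 to 3, 4 and 1 in T cells with scran, relative to the median gene and at 50 UMIs. Per ERCC UMI 0 were higher in each of these 3 populations, with 16 lower in granulocytes, 20 in B lymphocytes and 16 in T cells. Of all genes, 73.4%, 79.2% and 57.1% were lower on that scale in the same order. With scran 23.1% of all genes were higher in granulocytes and 12.3% in B lymphocytes, and with TMM factors 21.0% and 8.83%. Relative to the median gene 24.4%, 12.0% and 14.1% of all genes were higher in granulocytes, B lymphocytes and T cells. Without the 10 most abundant genes these shares were 14.0%, 10.6% and 10.4%. The erythroblast counts stayed within 1.5 times.

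Wells with a member UMI became 94.4% (LSK), 94.3% (granulocytes) and 99.0% (T cells) at 2000 UMIs, and 100%, 98.9% and 100% without thinning. Index ratios moved with the mean of well shares to 0.935 (erythroblasts, forward scatter), 1.23 (granulocytes, forward scatter), 0.905 (LSK, Sca-1) and 0.565 (granulocytes, Gr1), and without the 10 most abundant genes to 0.739 (erythroblasts, forward scatter) and 0.643 (erythroblasts, CD44). Without the well with the most member UMIs (N14 in LSK, I13 in granulocytes, A11 in B lymphocytes, O4 in T cells) they moved to 1.32 (LSK, forward scatter), 1.30 (granulocytes, forward scatter), 1.00 (B lymphocytes), 0.981 (T cells), 1.12 (LSK, c-Kit), 0.938 (LSK, Sca-1) and 0.498 (granulocytes, Gr1). Correlations without thinning were -0.54 and 0.76 (erythroblasts, with S phase and with further G2 and mitosis genes), 0.41 and 0.57 (LSK) and 0.25 (granulocytes, S phase), and the second erythroblast value was 0.58 at 2000 UMIs. The numbers of wells past the haemoglobin-scaled level stayed within 1.5 times with Alas2 and Slc4a1 as the scale and with wells nearest to their own population. The alternatives that leave out the well with the most member UMIs, use Alas2 and Slc4a1, or keep wells nearest to their own population for the haemoglobin-scaled level, and the TMM, ERCC and 10-gene settings for counts of members, were chosen after seeing the data. In all, 87 summary values stayed, 16 counts grew, 19 shrank and 48 moved, and of 568 single gene values 407 stayed, 158 moved and 3 reversed. With 1 mouse, differences between animals cannot be judged, and with a median of 5 to 12 member UMIs in a non-erythroid well, single genes there cannot be read per well.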
